A study of Homo sapiens with 5 samples.

Results

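Wild-type (WT) H9 cells grown in 2iLAF medium were compared with WT H9 cells grown in basal medium, gene by gene, with 1 RNA sequencing library for each. H9 is a human embryonic stem cell line. A gene entered when its deposited level reached 1 TPM (transcripts per 1000000, a length-corrected share of all transcripts) in at least 1 of the libraries, which held for 14444 of the 26506 gene symbols in the deposited table. Each gene was described by its TPM in both libraries and by the log2 ratio of (TPM + 1) in WT 2iLAF to (TPM + 1) in WT basal. That scale makes ratios of genes near 1 TPM look smaller than they are. A gene under 1 TPM in 1 library entered only through the other, so the filter itself favoured the direction of its ratio. This holds for such genes in every list below, also where it is not repeated. Genes whose ratio reached 2-fold (1 or -1 on the log2 scale) are called higher or lower.

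The study holds 5 libraries of H9, all poly(A)-selected. WT cells came from 3 media, basal, 2iLAF and 5iLAF, and cells lacking both alleles of B3GALT5 (genotype B3GALT5-/-, written B3GALT5-KO here) from basal and 2iLAF. The labels call both basal libraries primed, WT 5iLAF and B3GALT5-KO 2iLAF naive, and WT 2iLAF primed-naive, the control of the design. No culture, passage, time in medium or clone is named in the sources used here, and the media are named without their components. With 1 library per group there was no replicate, no test was possible, and every difference below describes 2 libraries.

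As background, human embryonic stem cells in standard culture resemble the epiblast after implantation, a state called primed, which is kept by FGF signalling through MEK and ERK and by activin and NODAL signalling through SMAD2 and SMAD3. Cells of the naive state resemble the epiblast before implantation, express factors such as KLF17 and DPPA5, and are obtained in media that block MEK together with other kinases. Media of the 2i type are in general use built on inhibitors of MEK and of the kinase GSK3, which acts in the WNT pathway, and the letters LAF stand in general use for LIF, activin A and FGF2. Primed cells deprived of activin and NODAL signals are known to turn readily to neuroectoderm, the source of brain and eye, unless BMP signals direct them to other fates.

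Several facts about the libraries preceded the gene results. B3GALT5, the galactosyltransferase targeted in the knockout, stood at 9.31 TPM in WT basal, 5.13 in WT 2iLAF, 2.08 in WT 5iLAF, 5.98 in B3GALT5-KO basal and 1.17 in B3GALT5-KO 2iLAF, and the edited stretch is not given in the sources used here, so these levels did not check the genotype. WT basal and B3GALT5-KO basal differed by 2-fold or more in 277 genes (1.96%), whereas the 2 libraries labelled 2iLAF differed in 4329 genes (28.6%). B3GALT5-KO 2iLAF and WT 5iLAF differed in only 935 genes (6.43%), so libraries sharing the medium label 2iLAF did not resemble each other. Erythroid markers, genes of red blood cells, summed to 238 TPM in WT basal and 2.16 TPM in WT 2iLAF. Genes other than globins gave 14 and 1.78 TPM of these sums, and all 10 of the 17 markers that passed the filter were lower. The 9 globin genes summed to 0.38 TPM in WT 2iLAF, so the 7 that passed did so only through WT basal, which favoured a lower ratio. The transcription factor GATA1, which defines red blood cells, stood at 0.05 TPM in WT basal and was listed at 0 in WT 2iLAF. Among other cells the library could hold, 13 of 20 granulocyte markers and 5 of 20 lymphocyte and macrophage markers were listed at 0 in WT basal, and PTPRC, the pan-leukocyte marker, stood at 0.04 TPM there and was listed at 0 in WT 2iLAF. Granulocyte markers summed to 18.1 and 5.64 TPM in the pair, with 1 of 3 that passed higher and 1 lower, and lymphocyte and macrophage markers to 131 and 33.1 TPM, with 2 of 6 lower, mostly from LCK at 103 and 21.9 TPM. Endothelial markers summed to 136 and 95.7 TPM, with 2 of 7 higher and 2 lower, and PECAM1 was at 0.06 and 0.02 TPM. Fibroblast markers summed to 856 and 219 TPM, with 2 of 9 higher and 3 lower. THY1, also a marker of primed cells, gave 716 and 65.7 TPM of these sums. COL1A2 went the other way, short of 2-fold, at 43.7 and 84.6 TPM. DCN was listed at 0 in both libraries. The part of such cells in the results was not tested, and in these bulk samples fewer cells of a type and less RNA per cell cannot be told apart.

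Of the 14444 genes, 745 were higher in WT 2iLAF (5.16%), 1108 were lower (7.67%), and 12591 were neither. The median log2 ratio was -0.16, with quartiles of -0.51 and 0.20, and 61.3% of genes lay within 0.5 of a ratio of 0. Ratios below 0 were held by 62.2% of genes. Differences of 4-fold or more were counted in 208 higher and 184 lower genes, and of 16-fold or more in 26 and 21. The 2 libraries had 13171 genes at or above 1 TPM in common, while 708 reached that level only in WT basal and 565 only in WT 2iLAF. A complete change of level was rare, since 31 genes stood at 10 TPM or more in WT 2iLAF and under 1 TPM in WT basal, and 25 the reverse. Among the 1785 genes at 100 TPM or more in either library, 79 were higher and 96 lower.

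The balance of higher and lower genes depended on scaling. As deposited, 40.2% of counted genes were higher. Rescaling by the median ratio gave 955 higher and 867 lower (52.4% higher), trimmed-mean rescaling 948 and 869 (52.2%), and deposited FPKM in place of TPM 654 and 679 (49.1%). At the edge of the rule, SOX2 was just inside with a ratio of 1.00 and MMP24-AS1 just outside with 0.9996, while HPSE and ARSJ stood at -1.0 and ISCA1 at -0.9998. The lowest level that passed the filter was 1.00 TPM and the highest that did not was 0.99 TPM.

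**Figure D1:**
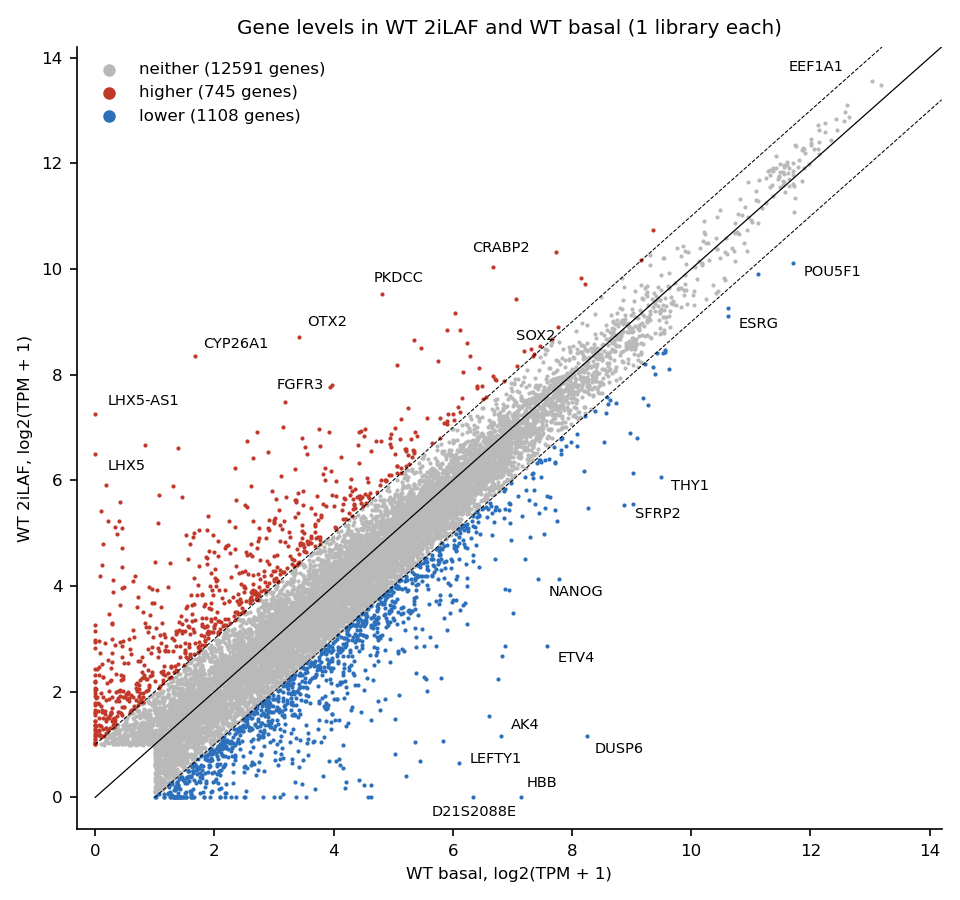
Level of each of the 14444 genes in WT basal (horizontal axis, log2(TPM + 1)) and WT 2iLAF (vertical axis, same unit), 1 point per gene, with the line of equality and dashed lines at 2-fold. The 745 higher genes (red) spread towards the upper left, where LHX5-AS1 and CYP26A1 lie farthest out, and the 1108 lower genes (blue) towards the lower right, with DUSP6 and HBB at the edge and POU5F1 below the line at the top right.

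The ratio moved with the base composition of the transcripts. The 13688 genes (94.8%) with a transcript in the GENCODE reference were sorted into 10 bins of GC content. The median log2 ratio went from -0.47 in the lowest bin, 30.2% to 38.8% GC, to 0.05 in the highest. The lowest bin held 24 higher and 144 lower genes, and the highest 138 and 95. Over the same bins the medians of the knockout pair in the same media lay between -0.14 and 0.05, without that slope. Subtracting each bin's median left 840 higher and 742 lower genes (53.1% higher), against 720 and 1041 (40.9%) of the same 13688 genes as deposited. Values after this subtraction are called GC-centred below. GC-centring changed a count of higher or lower members in 26 of the 60 gene lists. In 9 of them a count moved by over 1.5 times, and both values are given with those lists, while smaller changes are given for some lists alone. The part of GC content in any gene result was not otherwise tested.

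**Figure D2:**
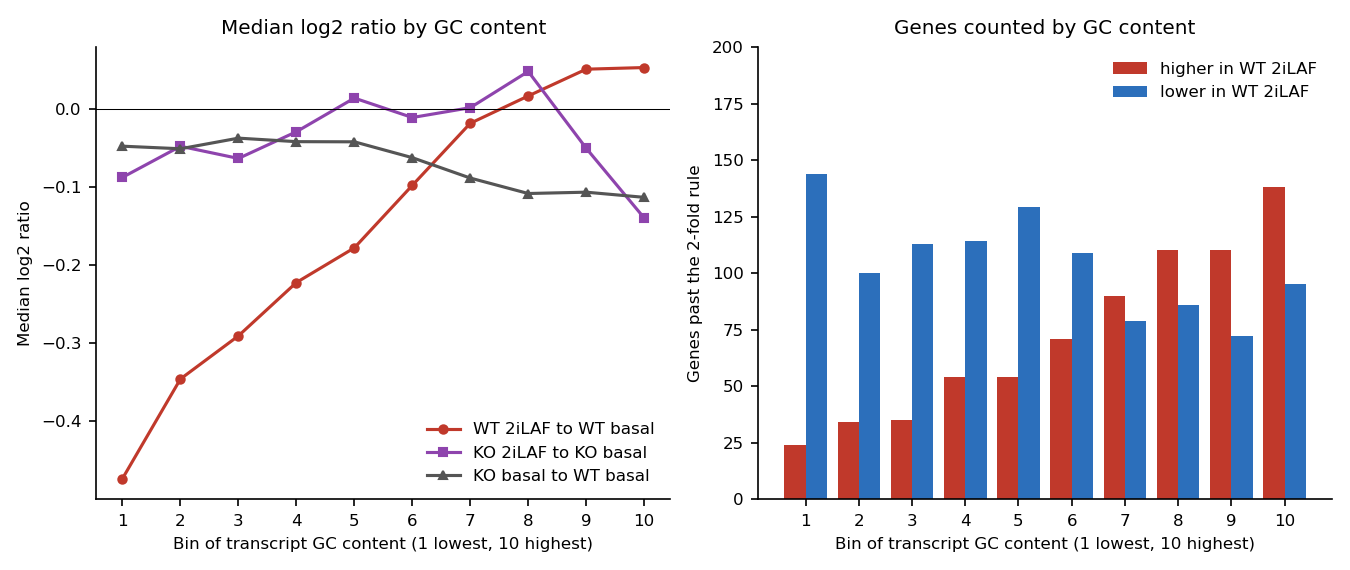
Left, median log2 ratio over genes in 10 bins of transcript GC content (bin 1 lowest) for WT 2iLAF against WT basal (red), B3GALT5-KO 2iLAF against B3GALT5-KO basal (purple) and B3GALT5-KO basal against WT basal (grey). Right, number of genes higher (red) and lower (blue) in WT 2iLAF in each bin. The red line climbs from -0.47 to 0.05 across the bins while the others stay between -0.14 and 0.05.

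Genes that report ERK activity were lower almost throughout. Of 18 ERK feedback genes, 14 were lower and 0 higher, with a median log2 ratio of -1.81, against -0.16 over all genes. DUSP6, the phosphatase that inactivates ERK, stood at 303 TPM in WT basal and 1.24 in WT 2iLAF, 244-fold lower and the deepest difference in the list. SPRY4, a feedback inhibitor of receptor tyrosine kinases, stood at 97.0 and 1.91 TPM, and its relative SPRY2 at 60.7 and 13.2. The ETS factors ETV4 and ETV5, induced by FGF, were at 190 and 6.30 TPM and at 42.6 and 0.61 TPM. Members with smaller differences included ERRFI1, an inhibitor of EGF receptors (64.0 and 26.3 TPM), and PHLDA1 (17.0 and 7.13). Outside that pattern, CCND1, the cyclin D1 gene, stood at 88.4 and 147 TPM and was counted in neither direction. After GC-centring 11 members were lower. In B3GALT5-KO cells 9 of the 18 were lower in 2iLAF, and SPRY2 stood at 38.0 TPM in basal and 54.8 in 2iLAF.

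Immediate early genes, which respond to growth factors within minutes, did not share that pattern. Their median was -0.03, with 5 of 18 lower and 0 higher. MYC, the growth regulator, stood at 72.7 TPM in WT basal and 11.8 in WT 2iLAF, IER3 at 59.0 and 7.97, and FOS at 9.64 and 3.41. EGR1, JUN, JUNB and ATF3 differed less: JUN was at 4.92 and 7.10 TPM and ATF3 at 14.4 and 14.5. In the knockout pair 10 of the 18 were higher and none lower, with JUN at 3.26 and 80.1 TPM.

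Several FGF receptors stood higher while 3 members of the FGF ligand family stood lower. FGFR3 was at 8.10 TPM in WT basal and 178 in WT 2iLAF, 22.0-fold higher, FGFR2 at 33.6 and 109, and FGFR1 at 174 and 374. FGFR4 and the decoy receptor FGFRL1 were not counted, at 65.6 and 51.5 and at 19.7 and 13.7 TPM. FGF19, a secreted ligand, was the lowest in ratio, at 23.7 and 1.77 TPM. FGF13 and FGF12, which act inside cells on ion channels, stood at 66.0 and 17.2 and at 6.13 and 1.36 TPM. FGF2, the secreted ligand that sustains primed cells, was at 19.5 and 30.1 TPM, short of the 2-fold rule. Over the 14 measured ligands and receptors 3 were higher and 3 lower.

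NODAL and activin signalling genes were mostly lower. Of 18 members, 10 were lower and 1 higher, with a median of -1.57. NODAL, the ligand, stood at 21.7 TPM in WT basal and 0.18 in WT 2iLAF. Its inhibitors LEFTY1 and LEFTY2, themselves targets of the pathway, stood at 67.8 and 0.57 and at 13.2 and 0.32 TPM. TDGF1, the co-receptor CRIPTO, was at 520 and 69.2 TPM. Feedback genes of the pathway were also lower, with SMAD7, an inhibitory SMAD, at 34.1 and 11 TPM and SKIL, a SMAD repressor, at 34.6 and 6.03. Receptors and signal carriers did not reach 2-fold: ACVR2B was at 17.6 and 21.3 TPM, SMAD2 at 11.7 and 8.58, and FOXH1, the DNA-binding partner of SMAD2, at 76.4 and 126. FST, follistatin, which binds and blocks activin, was the only member counted as higher, at 4.73 and 45.0 TPM. The same ligand genes stood far above basal in the knockout 2iLAF library, where NODAL was at 406 TPM and LEFTY2 at 1385, against 15.7 and 13.8 TPM in B3GALT5-KO basal.

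BMP pathway genes stood on the other side. Of 14 members 9 were higher and 0 lower; their median was 1.24. The ligands BMP4 and BMP7 stood at 2.67 and 20.3 TPM and at 10.2 and 26.9 TPM. Target genes of the ID family, which block basic helix-loop-helix factors, differed among themselves: ID1 was at 52.8 and 306 TPM, ID2 at 58.6 and 133 and ID4 at 2.17 and 31.2, while ID3 was at 238 and 240 TPM. BMP antagonists were also higher, with CHRD at 0.82 and 3.74 TPM and GREM1 at 0.08 and 2.15. BAMBI, a decoy receptor and common BMP target, was not, at 27.2 and 15.1 TPM.

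WNT target genes gave no common direction. Of 14 measured members 4 were higher and 2 lower; their median was 0.22. AXIN2, a general feedback target of beta-catenin, stood at 9.56 and 20.8 TPM, and TNFRSF19, a receptor of the tumour necrosis factor family, at 0.37 and 19.6. The pathway antagonists NKD2 and APCDD1 were lower, at 12.7 and 4.53 and at 6.44 and 1.58 TPM. LEF1 and SP5, strong targets in embryonic stem cells, stayed low, at 0.34 and 1.42 TPM and at a listed 0 and 1.02 TPM. Even so, SP5 was 1 of the 4 counted as higher, and it passed the filter only through WT 2iLAF. It reached 122 TPM in B3GALT5-KO 2iLAF and 109.6 in WT 5iLAF. In the knockout pair 10 of the same 14 genes were higher.

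Receptors and secreted antagonists of WNT differed in both directions. SFRP2, a secreted binder of WNT, stood at 470 TPM in WT basal and 45.1 in WT 2iLAF, while its relative SFRP1 was at 286 and 501 and SFRP5 at 2.03 and 13.3. FRZB, another member of that family, was at 1.08 and 35.6 TPM. The receptors FZD5 and FZD8 stood at 20.4 and 120 and at 4.13 and 48.6 TPM, and FZD7 at 143 and 231, short of the rule. Over 23 measured ligands, receptors and antagonists 6 were higher and 2 lower. Among ligands, WNT4 and WNT2B were counted as higher from levels under 1 TPM, and WNT5B as lower, at 2.97 and 0.39 TPM.

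Genes of the LIF and STAT3 pathway, whose ligand is 1 component of such media, had a median of -0.25, with 3 of 18 higher and 3 lower. KLF4, a STAT3 target and pluripotency factor, stood at 1.40 TPM in WT basal and 20.5 in WT 2iLAF, and the kinase PIM1 at 41.1 and 113. SP5, also on the WNT target list, was the other gene counted as higher, at a listed 0 and 1.02 TPM. SOCS3, the direct feedback inhibitor, was at 19.7 and 27.1 TPM and STAT3 itself at 58.5 and 74.4, neither reaching 2-fold. JAK1, the receptor kinase, was lower, at 25.2 and 5.48 TPM, as was GBX2, a homeobox target of LIF in mouse cells, at 11.8 and 0.11.

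Among NOTCH genes 4 of 20 were higher and 3 lower. HES4, a target repressor, stood at 0.36 and 14.7 TPM, the ligand DLL1 at 4.31 and 11.6 and the modifier LFNG at 19.9 and 50.6. HEY2 and HEY1, also target repressors, were lower, at 10.7 and 1.05 and at 3.20 and 0.90 TPM. Hedgehog genes were shifted upwards as a group, since all 11 measured members had ratios above 0, with a median of 0.77, and 3 reached the rule, or 5 after GC-centring. GLI1, the transcription factor that reports the pathway, was at 8.90 and 21.8 TPM and PTCH1, the receptor and target, at 6.65 and 13.8. The ligands SHH, IHH and DHH stayed below 1 TPM in both libraries.

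On the log2(TPM + 1) scale, CYP26A1 had the highest upward ratio, 6.67, of genes that reached 10 TPM and were listed above 0 in both libraries. This enzyme, which degrades retinoic acid and is itself induced by it, stood at 2.20 TPM in WT basal and 325 in WT 2iLAF, 148-fold higher, and at 11.9, 71.1 and 66.0 TPM in B3GALT5-KO basal, B3GALT5-KO 2iLAF and WT 5iLAF. WT 2iLAF thus held the highest level of the 5 libraries and WT basal the lowest. CRABP2, which carries retinoic acid to its receptors, was at 101 and 1054 TPM, and DHRS3, which reduces retinal, at 7.03 and 37.1. RARB, a receptor and target, was listed at 0 and reached 1.02 TPM. The synthesising enzymes ALDH1A1 and ALDH1A3 hardly differed, at 14.5 and 14.4 and at 3.82 and 3.46 TPM. In all, 4 of 17 members were higher and 2 lower, and 1 was lower after GC-centring.

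The promoter of CYP26A1 is shown because the gene led these ratios and its induction by retinoic acid is textbook knowledge. The 250 bases before a listed start site (RefSeq, build GRCh38.p14, plus strand, chr10:93073643-93073892) read 5' to 3' as follows, with capitals marking a direct repeat of 2 receptor half-sites 5 bases apart, found on the opposite strand and beginning 90 bases before the start.
CYP26A1: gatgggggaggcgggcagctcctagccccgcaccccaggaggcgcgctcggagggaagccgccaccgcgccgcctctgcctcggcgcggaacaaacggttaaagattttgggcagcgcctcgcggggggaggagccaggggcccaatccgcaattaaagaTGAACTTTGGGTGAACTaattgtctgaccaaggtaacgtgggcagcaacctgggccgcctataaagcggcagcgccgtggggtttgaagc
Of 35114 such windows in the reference, 26 held this repeat (0.074%), and of the 13 retinoic acid genes with a window, CYP26A1 and RARB did. It was present before 1 of the 2 starts listed for CYP26A1. The match describes the letters of the window, not the use of a site in these cells.

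Of 12 genes known as targets of YAP, the effector of the Hippo pathway, 8 were higher and 1, AMOTL1, lower, with a median of 1.69. The list they came from also held YAP1, its paralogue WWTR1 and their 4 DNA-binding TEAD partners, and over all 18 genes the median was 0.75, with 8 higher and 2 lower. ANKRD1 stood at 0.23 TPM in WT basal and 13.8 in WT 2iLAF, AMOTL2 at 13.1 and 68.6, CTGF at 30.1 and 117, and CYR61 at 29.9 and 102. YAP1 itself was at 85.3 and 44.8 TPM and WWTR1, counted as lower, at 11 and 3.53. Both CTGF and CYR61 were lowest in WT basal among the 5 libraries, with 147 and 104 TPM in B3GALT5-KO basal.

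**Figure D3:**
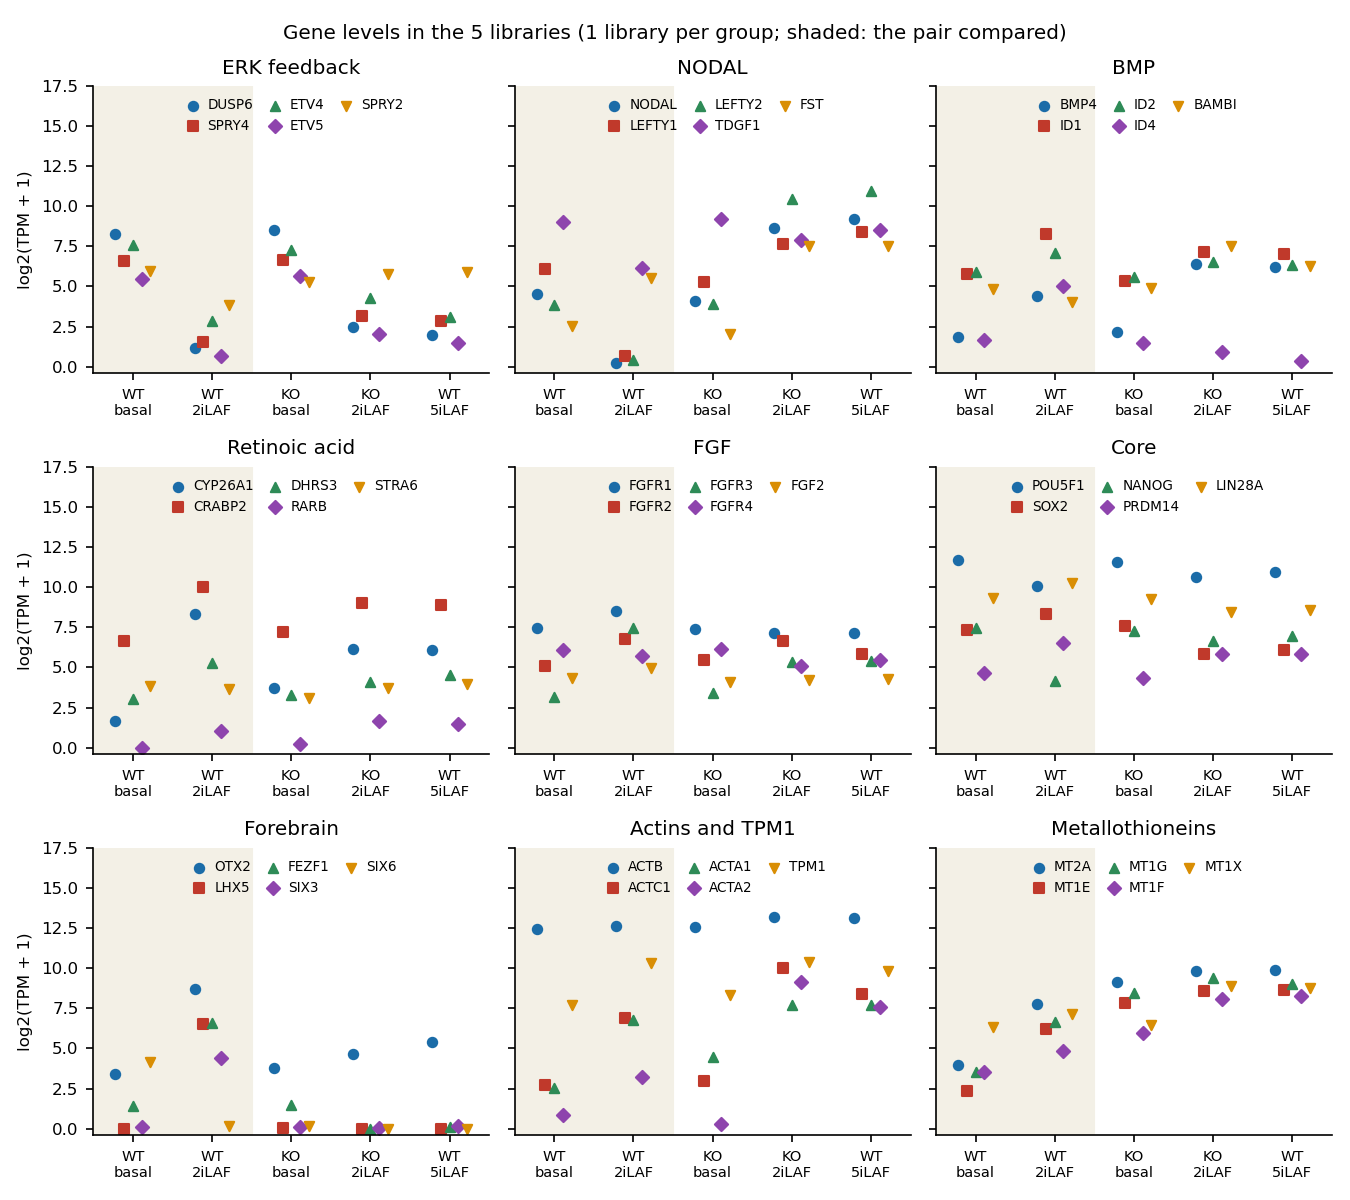
Level of named genes, log2(TPM + 1), in each of the 5 libraries, 1 point per library, in 9 panels by gene group, with the compared pair shaded. In the shaded pair the ERK feedback and NODAL panels step down apart from FST, the retinoic acid, forebrain and metallothionein panels step up apart from SIX6 and STRA6, and in the NODAL panel the knockout 2iLAF and WT 5iLAF libraries stand above both basal libraries except for TDGF1.

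Core pluripotency genes divided. Of 20 members 10 were lower and 4 higher, with a median of -1.04. POU5F1, which encodes OCT4, stood at 3350.3 TPM in WT basal and 1099 in WT 2iLAF, the largest loss of TPM of any gene. NANOG was at 171 and 16.5 TPM, 10.4-fold lower, L1TD1, an RNA-binding protein of stem cells, at 499 and 119, and DPPA4 at 658 and 282. On the other side SOX2, also a neural progenitor factor, was at 161 and 324 TPM, SALL4 at 67.2 and 167, PRDM14 at 23.8 and 92.7, and TRIM71 at 63.8 and 141. LIN28A, which blocks let-7 maturation, was at 632 and 1233 TPM, just short of the rule, and ZFP42 and DNMT3B hardly differed, at 102 and 95.1 and at 754 and 697 TPM. WT 2iLAF held the lowest NANOG of the 5 libraries, the others standing between 99.0 and 171 TPM, and the highest SOX2, the others standing between 55.3 and 190.0 TPM.

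Primed markers were lower in 11 of 28 cases and higher in 3, with a median of -0.29. After GC-centring 10 were lower and 6 higher. Besides the ERK targets, the lower ones were led by THY1, a surface protein, at 716 and 65.7 TPM, HMX2 at 45.0 and 3.87, and PTPRZ1, a receptor phosphatase, at 122 and 14.1. Many others did not differ by 2-fold: CD24 stood at 1382 and 1330 TPM, TCF7L1 at 124 and 136, ZIC2 at 84.3 and 107, SALL2 at 201 and 153 and SLC7A3 at 148 and 216. OTX2, a homeobox factor of primed cells and forebrain, stood at 9.67 TPM in WT basal and 421 in WT 2iLAF, and VIM, vimentin, at 32.5 and 291. In the knockout pair 20 of the 28 were lower, with SLC7A3 at 260.2 and 7.31 TPM and TCF7L1 at 153 and 15.1.

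Naive markers gave no common direction either. Of 32 listed, 18 reached 1 TPM in the pair, and 4 of those were higher and 4 lower. KLF4 and PRDM14 were higher, as given above, with DNMT3L at 0.04 and 1.57 TPM and the alkaline phosphatase ALPPL2 at 0.29 and 1.92. GDF3 was lower at 13.8 and 2.22 TPM, DPPA2 at 9.09 and 1.95, and CPT1A, which admits fatty acids to mitochondria, at 8.03 and 1.40. The 14 that did not reach 1 TPM in either library included KLF17, DPPA5, ARGFX, ESRRB and TBX3. SUSD2, a surface marker of naive cells, was at 3.22 and 3.29 TPM.

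Transcription factors of the forebrain and eye field held many of the largest ratios. Of 33 listed, 14 reached 1 TPM and 8 of those were higher and 2 lower; their median was 2.02. LHX5, a LIM homeobox factor of the anterior neural plate, was listed at 0 in WT basal and stood at 89.7 TPM in WT 2iLAF, and LHX5-AS1 was listed at 0 and stood at 152. The names pair LHX5-AS1 with LHX5 as its antisense RNA, and whether the authors' counting separated the strands is not given in the sources used here. FEZF1 stood at 1.63 and 96.6 TPM, LMO1 at 0.14 and 58.9, HESX1, an early forebrain repressor, at 6.80 and 54.5, SIX3 at 0.08 and 20.1 and DLX5 at a listed 0 and 7.83. SIX6 and EMX1 went the other way, from 17.2 to 0.13 TPM and from 7.58 TPM to a listed 0. LHX5, LMO1, SIX3, DLX5 and DLX6 passed the filter only through WT 2iLAF, and SIX6 and EMX1 only through WT basal, which favoured those directions. WT 2iLAF was the only library of the 5 with more than 2 TPM of LHX5, SIX3 or FEZF1.

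Other factors of that region stayed below the filter. PAX6, RAX, LHX2 and EMX2, which mark the established eye field and telencephalon, were among 19 listed members under 1 TPM in both libraries. Of 16 neural progenitor genes 5 were higher and 1 lower. SOX21 stood at 0.78 and 101 TPM and the RNA-binding protein gene MSI1 at 28.4 and 63.5. LHX5-AS1, given above, was also on that list and among its higher genes, and the list was written with earlier results of these data known. SOX21 and LHX5-AS1 passed the filter only through WT 2iLAF. SOX1 did not reach 1 TPM, and NES, nestin, was at 103 and 157 TPM. The count of anterior genes therefore rested on part of the list.

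Some genes of more posterior and lateral ectoderm were also among the higher ones. Of 27 midbrain, hindbrain and spinal cord genes 11 reached 1 TPM, and 5 of these were higher and 2 lower. EN1, EN2, PAX2, PAX5 and PAX8 did not reach 1 TPM in either library. Iroquois homeobox genes were 4 of the higher ones. IRX1 stood at 0.32 and 36.4 TPM, IRX2 at 6.47 and 91.3, IRX3 at 1.05 and 14.1 and IRX5 at 0.06 and 5.62. IRX4, an Iroquois gene outside the list, was lower at 2.77 and 0.77 TPM. OLIG2, a factor of motor neuron and oligodendrocyte precursors, was lower at 4.28 and 1.16 TPM, as was GBX2 at 11.8 and 0.11. The higher genes LMX1B, IRX1 and IRX5 passed the filter only through WT 2iLAF. GBX2 and IRX4 reached 1 TPM only in WT basal. The filter favoured those directions. All 39 HOX genes stayed below 1 TPM in both libraries, with a sum of 0.68 TPM in WT basal and 0.77 in WT 2iLAF. Of 16 neural crest and placode genes 8 were higher and 3 lower. Of the higher ones TFAP2A, DLX3, DLX5, DLX6 and GATA3 passed the filter only through WT 2iLAF, which favoured that direction. TFAP2A, an early factor of non-neural ectoderm and crest, was at 0.06 and 17.3 TPM, TFAP2C at 3.72 and 36.5, EYA2 of the placodes at 1.71 and 9.85, and the crest factor SOX10 at 2.59 and 8.37, while FOXD3, shared by crest and stem cells, was lower at 8.74 and 1.33.

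Lists that share TFAP2A, TFAP2C or GATA3 gave similar counts and are not independent of each other. Trophoblast markers were higher in 6 of 13 cases and lower in 0, with ELF3 at 2.76 and 24.2 TPM and GATA2 at 0.22 and 4.92, whereas CDX2, ELF5 and CGA did not reach 1 TPM. Amnion markers were higher in 4 of 8 cases and lower in 2 (1 after GC-centring), and ISL1 and VTCN1 did not reach 1 TPM. Germ cell genes were higher in 5 of 10 cases and lower in 0, with SOX15 at 5.28 and 84.3 TPM and DAZL at 0.89 and 9.93, whereas SOX17, NANOS3 and DDX4 did not reach 1 TPM. Surface ectoderm genes were higher in 5 of 15 cases and lower in 1, with GRHL3 at 0.12 and 6.58 TPM and KRT5 at a listed 0 and 6.71, and TP63 and KRT14 below 1 TPM. Of the higher genes in these lists TFAP2A, GATA2, GATA3, IGFBP5, KRT17, KRT5, GRHL3, PRDM1 and DAZL passed the filter only through WT 2iLAF. The lower amnion genes, GABRP and HEY1, passed only through WT basal. The filter favoured those directions.

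Most mesoderm and endoderm markers stayed below the filter. Of 20 primitive streak and mesoderm markers 5 reached 1 TPM, none was higher, and KDR and MIXL1 were lower at 28 and 2.62 and at 2.59 and 0.38 TPM. T, EOMES, GSC and MESP1 were under 1 TPM in both libraries. Of 9 measured endoderm markers 2 were higher and 3 lower, all at low level, such as PRDM1 at 0.04 and 3.98 and CER1 at 3.41 and 0.48 TPM. MIXL1 and CER1 stood at 218 and 852 TPM in B3GALT5-KO 2iLAF and at 292 and 1832 in WT 5iLAF.

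Genes of the actin cytoskeleton, for which no list was written, were mixed, and some of those named here were chosen after their values were seen. TPM1, tropomyosin, stood at 212 TPM in WT basal and 1283 in WT 2iLAF, MYL9, a myosin light chain, at 133 and 685, TAGLN, transgelin, at 68.4 and 460, and CNN1, calponin, at 18.5 and 64.1. Striated actins were higher from a low level, with ACTC1 at 5.60 and 120 TPM and ACTA1 at 4.87 and 106, and the smooth muscle actins ACTG2 and ACTA2 at 1.46 and 58.2 and at 0.81 and 8.39. ACTB, the general cytoplasmic actin, was at 5547 and 6335 TPM, CALD1, the smooth muscle protein caldesmon, at 139 and 84.8, and PFN1, the actin-binding profilin, at 1955 and 1298, and none of these 3 reached 2-fold. Of 8 muscle genes that passed the filter 6 were higher and 0 lower, while MYOD1 and MYOG, which define skeletal muscle, were listed at 0 in both libraries, and the heart myosins MYH6 and MYH7 stood at or below 0.06 TPM.

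The promoters of ACTC1 and ACTA1 are shown because both stood more than 20-fold higher and both carry a CArG box, the known binding motif of serum response factor. The 250 bases before the start (RefSeq, build GRCh38.p14, minus strand) lie at chr15:34795550-34795799 for ACTC1, at 1 of its 3 listed starts, and at chr1:229434095-229434344 for ACTA1. Capitals mark the CArG box, which begins 109 and 97 bases before the start.
ACTC1: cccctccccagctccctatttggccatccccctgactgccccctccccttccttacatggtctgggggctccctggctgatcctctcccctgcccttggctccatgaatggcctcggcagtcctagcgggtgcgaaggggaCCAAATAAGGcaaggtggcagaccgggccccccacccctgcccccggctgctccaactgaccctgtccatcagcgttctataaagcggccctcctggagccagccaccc
ACTA1: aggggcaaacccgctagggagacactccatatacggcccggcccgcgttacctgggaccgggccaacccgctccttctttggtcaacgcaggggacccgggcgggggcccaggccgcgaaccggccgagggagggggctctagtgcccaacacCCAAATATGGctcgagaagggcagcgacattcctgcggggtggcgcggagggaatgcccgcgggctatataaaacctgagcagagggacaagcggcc
Of the 35114 windows 1.16% held a CArG box, and of the 5 muscle genes that passed the filter and had a window, ACTA1, ACTC1 and MYL7 did. SRF, the gene of serum response factor, was at 60.8 and 87.4 TPM, and its growth factor target EGR1 at 5.28 and 3.75 TPM.

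Other structural groups were mixed. Of 16 mesenchymal genes 7 were higher and 2 lower (8 and 1 after GC-centring), and the lower ones were FN1, fibronectin (44.1 and 20.7 TPM), and TWIST2 (2.16 and 0.41 TPM), while SNAI2, ZEB1 and ZEB2, repressors of epithelial genes, stayed below 1 TPM. Several epithelial genes stood above their basal level: CDH1, E-cadherin, stood at 115 and 233 TPM, CLDN4 at 29.7 and 111, CLDN3 at 10.2 and 45.2, and TJP3 at 7.08 and 37.9, with EPCAM at 302 and 297. Of 6 simple keratins and related genes 2 were higher, KRT19 at 101 and 250.4 TPM and KRT7 at 9.88 and 27.0. Over 30 epithelial adhesion genes 5 were higher and 2 lower (1 after GC-centring), in contrast to 3 higher and 17 lower in the knockout pair. Among 26 cadherins and protocadherins 9 were higher and 1 lower, led by PCDH8 (0.16 and 36.5 TPM), PCDH7 (1.00 and 21.1) and CDH6 (0.17 and 10.1). Of the higher ones PCDH8, CDH6, CDH9 and CDH13 passed the filter only through WT 2iLAF, which favoured that direction.

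Matrix genes and their receptors differed in balance. Collagens were higher in 5 of 26 cases and lower in 2, with COL13A1 at 3.81 and 23.8 TPM and COL9A3 at 46.4 and 145 against COL5A2 at 24.3 and 3.65. Integrins and laminins were lower in 7 of 23 cases and higher in 2. ITGB5 stood at 187 and 43.6 TPM, ITGB1, the common beta chain, at 333 and 157, ITGA6 at 75.2 and 33.4, and ITGA5, which pairs with ITGB1 to bind fibronectin, at 31.9 and 15.2. LAMA5, a laminin alpha chain, was higher at 26.9 and 63.3 TPM. After GC-centring 3 integrins and laminins were lower, and the median went from -0.39 to 0.03.

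Guidance molecules and secretory genes completed the neural lists. Of 40 axon guidance genes 7 were higher and 5 lower, with SEMA6D at 0.40 and 14.9 TPM and EPHA4 at 3.04 and 18.9 against SLIT2 at 10.8 and 0.75 and EPHA1 at 164 and 55.1. Neuroendocrine genes were lower in 7 of 22 cases and higher in 2. CHGA, a protein of secretory granules, stood at 107 and 3.75 TPM, NTS, neurotensin, at 56.1 and 1.09, and VSNL1, a calcium sensor, at 117 and 14.3, whereas INSM1, a factor of neuroendocrine precursors, was at 0.21 and 8.71.

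**Figure D4:**
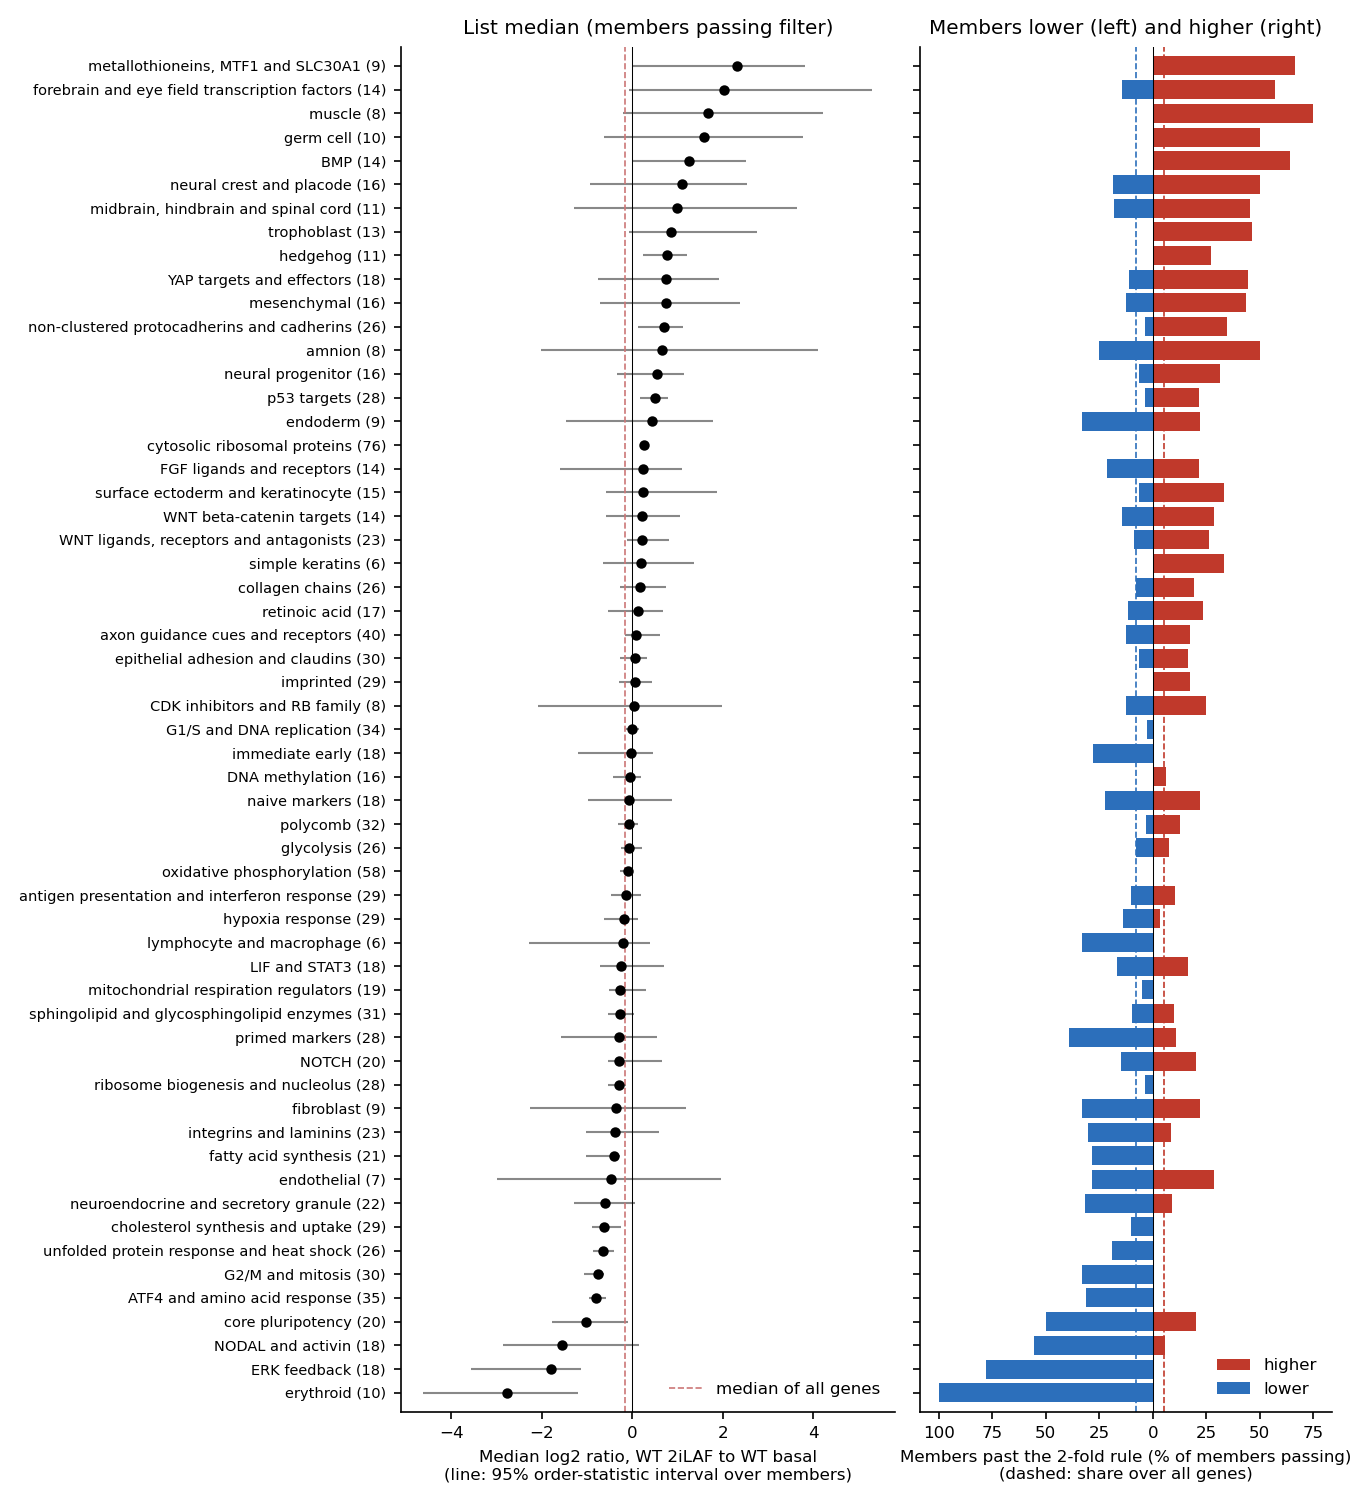
Left, median log2 ratio of WT 2iLAF to WT basal over the members of each gene list that passed the filter (number in brackets), with a 95% order-statistic interval over members, which are not replicates. Right, percent of those members lower (blue, drawn to the left) and higher (red, drawn to the right), with dashed lines at the shares over all genes, 7.67% and 5.16%. The metallothionein list and forebrain factors stand at the top and ERK feedback and erythroid genes at the bottom. The forebrain, erythroid and several other medians include genes that passed the filter only through the library where they stood higher.

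Metallothioneins, small proteins that bind zinc and copper, were counted as higher for 6 of the 7 family members that passed the filter and as lower for 0, with a median of 3.11. With the other two genes of their list, MTF1 and SLC30A1, the median was 2.31, the highest of the lists with 6 or more members measured. MT2A stood at 14.4 TPM in WT basal, 217 in WT 2iLAF, 935 in WT 5iLAF, 574 in B3GALT5-KO basal and 911 in B3GALT5-KO 2iLAF. WT basal was thus the lowest of the 5 libraries, and the other basal library stood above WT 2iLAF. MT1E was at 4.09 and 74.5 TPM in the pair and at 229.8 in B3GALT5-KO basal, MT1G at 10.5 and 98.5 with 347 in B3GALT5-KO basal, and MT1H at 2.72 and 39.1 with 133 there. MT1X, also the highest of the family in WT basal, differed least, at 78.2 and 142 TPM. MTF1, the zinc-sensing factor, and SLC30A1, a zinc exporter that it induces, were at 4.36 and 4.31 and at 14 and 12.6 TPM. The family members are near-identical in sequence, so the division of reads among them by the authors' software is uncertain.

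The promoters of MT2A and MT1X are shown because MT2A stood highest of the family in WT 2iLAF and MT1X differed least. Capitals mark matches to the core of the metal response element, TGCACNC or TGCGCNC on either strand, in the 250 bases before the start (RefSeq, build GRCh38.p14, plus strand), at chr16:56608334-56608583 for MT2A and chr16:56682220-56682469 for MT1X.
MT2A: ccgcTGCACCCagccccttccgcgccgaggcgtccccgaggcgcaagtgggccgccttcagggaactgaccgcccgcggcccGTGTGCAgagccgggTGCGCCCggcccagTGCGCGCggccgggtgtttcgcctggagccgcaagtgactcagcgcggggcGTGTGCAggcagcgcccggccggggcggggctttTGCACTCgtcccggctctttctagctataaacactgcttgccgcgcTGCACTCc
MT1X: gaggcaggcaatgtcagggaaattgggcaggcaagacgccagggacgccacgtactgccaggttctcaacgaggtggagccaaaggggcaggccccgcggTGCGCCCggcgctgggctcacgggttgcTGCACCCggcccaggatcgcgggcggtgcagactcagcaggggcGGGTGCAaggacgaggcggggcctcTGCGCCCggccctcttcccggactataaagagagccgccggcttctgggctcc
MT2A held 7 matches, 5 on the gene's strand and 2 on the other, and MT1X held 4, of which 3 lay on the gene's strand. Of the 35114 windows 24.8% held at least 1 match, 0.37% at least 4 and 0.0313% at least 7. Among the 5 listed genes with a window, MT1H, MT1X, MT2A and SLC30A1 had a match, and SLC30A1 did not differ in level.

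Energy metabolism differed in single genes more than in pathways. AK4, an adenylate kinase of mitochondria and a hypoxia target, stood at 111 TPM in WT basal and 1.25 in WT 2iLAF, 88.6-fold lower, whereas the other hypoxia genes stood closer to level, with 4 of 29 lower and 1 higher including AK4. SLC2A3, a high-affinity glucose transporter of stem cells, was at 371 and 104 TPM, and PDK1, which holds back pyruvate oxidation, at 24.7 and 6.23. Of 26 glycolysis genes 2 were higher and 2 lower, and of 19 regulators of mitochondrial respiration CPT1A alone was counted, as lower. Glycolytic enzymes mostly kept their level, with GAPDH at 6444 and 7500.3 TPM and PKM at 1059.5 and 639, and ENO2, the neuronal enolase, was higher at 104 and 242. None of 58 oxidative phosphorylation genes was counted in either direction, and their median of -0.10 changed sign to 0.06 under median-ratio and trimmed-mean rescaling.

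Synthesis genes were shifted downwards. In the ATF4 and amino acid response list 11 of 35 were lower and 0 higher, with a median of -0.80. ASNS, asparagine synthetase, stood at 238 and 98.9 TPM, the transporter SLC7A5 at 225 and 88.9, SHMT2 of the mitochondrial folate cycle at 387 and 173, and ATF4 itself at 903 and 620. Cholesterol synthesis genes had a median of -0.63, with 26 of 29 ratios below 0, against 62.2% over all genes. Among the 3 counted as lower was CYP51A1, at 103 and 42.4 TPM. Fatty acid genes were lower in 6 of 21 cases and higher in 0, with the desaturase SCD at 739 and 340 TPM. After GC-centring those counts were 9, 0 and 2. Chaperone genes were lower in 5 of 26 cases and higher in 0, with HSPA8, the constitutive heat shock protein, at 2226 and 956 TPM and HSPA1A at 79.5 and 21.2.

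Cytosolic ribosomal proteins were the reverse in sum. Their 76 genes added up to 230248 TPM in WT basal and 280166 TPM in WT 2iLAF, and 9 of 76 ratios lay below 0, although none reached 2-fold and the median was 0.26. RPLP0 stood at 4449 and 6783 TPM and RPS2 at 6301 and 8753, and the translation factor EEF1A1, with the largest gain of any gene, at 8347 and 11986. Ribosome assembly genes did not follow, with 25 of 28 ratios below 0, against 62.2% over all genes. Their median was -0.30, and NPM1, nucleophosmin, stood at 3376 and 2147 TPM. In B3GALT5-KO cells the ribosomal protein median was -0.42.

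Cell cycle genes differed by phase. All 30 genes of G2 and mitosis had ratios below 0, against 62.2% of all genes. By the rule 10 were lower, and the median was -0.75. TOP2A, the topoisomerase of chromosome condensation, stood at 269 and 99.4 TPM, MKI67, the Ki-67 gene, at 54.9 and 18.9, CDK1 at 196 and 83.3, and CENPE, a kinetochore motor, at 25.4 and 5.72. In contrast, only CCND2 among 34 genes of G1, S phase and DNA replication was counted, as lower, at 32.7 and 10.3 TPM, and the median was -0.01, which became 0.16 under median-ratio rescaling. PCNA stood at 444 and 409 TPM and MCM2 at 140 and 189. The mitotic list had 7 lower members after GC-centring. Inhibitors of the cycle were mixed, with CDKN1C at 12.2 and 51.3 TPM and CDKN1A, p21, at 5.38 and 13.9, but CDKN3 at 86.0 and 19.5.

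Targets of p53 were higher in 6 of 28 cases and lower in 1, with a median of 0.50. PHLDA3 stood at 12.8 and 38.8 TPM, BTG2 at 2.14 and 7.71, and BBC3, the pro-apoptotic PUMA, at 12.4 and 29.2. The exception, PMAIP1, the pro-apoptotic NOXA, was at 184 and 30.7 TPM. MDM2, the main feedback target, was at 10.8 and 16.5 TPM. BIK, another pro-apoptotic gene, was not on the list and stood at 0.36 and 33.2 TPM.

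Chromatin genes mostly kept their level. Of 16 DNA methylation genes only DNMT3L was counted as higher, with DNMT1 at 103 and 76.4 TPM and TET1 at 22.1 and 13.7. Polycomb genes were higher in 4 of 32 cases and lower in 1, with KDM6B, a demethylase of the polycomb mark, at 1.89 and 9.26 TPM and PHC1, a stem cell subunit, at 582 and 188. Imprinted genes were higher in 5 of 29 cases and lower in 0, with DLK1 at 0.36 and 25.4 TPM and MEG3, also at the DLK1 locus, at 0.01 and 1.54. H19 was at 2.77 and 10.9 TPM, against 2762 in B3GALT5-KO 2iLAF. Among sphingolipid and glycosphingolipid enzymes, the group that includes B3GALT5, 3 of 31 were higher and 3 lower, with B4GALT6, a lactosylceramide synthase, at 15.6 and 2.64 TPM and A4GALT, which makes globotriaosylceramide, at 7.57 and 18.8.

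Antigen presentation and interferon genes were mixed, with 3 of 29 higher and 3 lower. BST2, tetherin, stood at 59.1 and 459 TPM and IFI16, a DNA sensor, at 0.64 and 12.8, while IFITM2 was at 789 and 274. Among the 30 highest ratios of all genes reaching 10 TPM, those not yet described included GREB1L at 0.07 and 41.8 TPM, EDN1, endothelin, at 0.34 and 46.9, PKDCC, a secreted tyrosine kinase, at 27.1 and 732, and PRODH, proline dehydrogenase, at 14.7 and 224. Among the 30 lowest were D21S2088E, at 80.4 TPM and a listed 0, METTL7A at 36.3 and 0.32, P2RY1, an ADP receptor, at 40.0 and 1.08, NFE2L3 at 116 and 6.27 and FOXD3-AS1 at 220.0 and 16.6. The list also held HBB, beta-globin, at 140.2 TPM and a listed 0, with HBG2, HBA1 and HBA2 between 22.9 and 23.7 TPM in WT basal. These globins are most of the erythroid sum given at the start.

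The same medium labels were compared in the knockout, which shares no library with the WT pair. Over the same 14444 genes, B3GALT5-KO 2iLAF had 1653 genes higher (11.4%) and 1815 lower (12.6%) than B3GALT5-KO basal. Of the 745 genes higher in the WT pair, 309 were higher (41.5%), 78 lower (10.5%) and 358 neither in the knockout pair, and of the 1108 lower genes 415 were lower (37.5%), 112 higher (10.1%) and 581 neither. Among the 12591 genes counted in neither direction in WT, 9.78% were higher and 10.5% lower in the knockout. Seen from the knockout pair, the shared genes were 18.7% of its higher and 22.9% of its lower genes.

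Single genes showed where the genotypes parted. Among 81 genes named for the size of their WT ratio or TPM difference, 30 were higher, and 22 of these were higher in the knockout pair as well, 7 neither and 1 lower. Of the 36 lower ones, 18 were lower in the knockout pair, 8 neither and 10 higher. DUSP6, THY1 and CHGA were lower in both pairs, with DUSP6 at 370 and 4.66 TPM in the knockout. LHX5, LHX5-AS1 and SIX3 were confined to WT 2iLAF among the 5 libraries at a level above 1 TPM. ACTC1 was higher in both pairs and reached 1030.0 TPM in B3GALT5-KO 2iLAF. Whether the genotypes differ in their response was not tested, since each genotype and medium had 1 library.

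**Figure D5:**
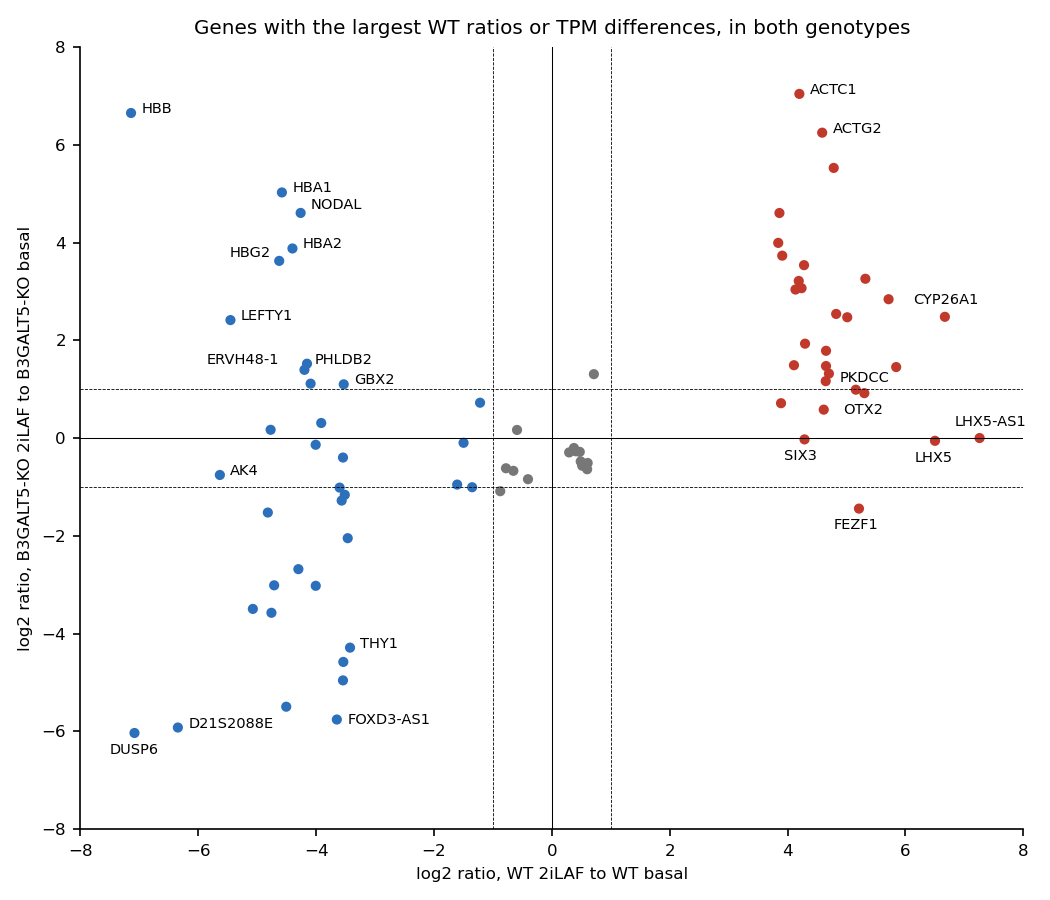
Log2 ratio of 2iLAF to basal in WT (horizontal axis) and in B3GALT5-KO (vertical axis) for the 81 genes with the largest WT ratios or TPM differences, 1 point per gene, coloured by the WT call (red higher, blue lower, grey neither), with dashed lines at 2-fold. Most red points lie above 0 on the vertical axis with FEZF1 below -1, while blue points spread from DUSP6 at the bottom to the globins, NODAL and LEFTY1 at the top.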

How the data were processed

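Poly(A)-selected RNA of 5 H9 libraries, 1 per group, was prepared with a stranded TruSeq kit, per the labels' protocols. The authors deposited TPM and FPKM per gene symbol, per the file headers. The submitters' processing notes name Trimmomatic 0.39, Bowtie2 2.3.4.1, RSEM 1.2.28 and build hg19. The annotation and strand setting were not given in the sources used here. No counts were at hand, so depth is unknown and no counting interval is given. The table's 18 columns without a name were empty.

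Ratios were computed as log2(TPM + 1) differences for genes at 1 TPM or more in either library, rounded before the 2-fold rule was applied. FPKM, pseudocounts of 0.1 and 5, filters, rescaling, a 4-fold rule and leaving out the markers of other cells were alternatives. GC-centring was added after the data were seen. The members and 60 gene lists were chosen with earlier results of these data known. Named genes are the 30 highest and 30 lowest ratios at 10 TPM or more, the 10 and 10 at 100 TPM or more, the 10 largest TPM gains and losses, list members and B3GALT5. GC content came from GENCODE, from the longest transcript of each symbol, and promoters from RefSeq (GRCh38.p14), by symbol. A list's interval is a binomial order-statistic interval over members. Scripts ran in Python 3.11.15 (pandas 2.3.3, numpy 2.4.6, matplotlib 3.10.9). The counting was tested on simulated data with 4-fold changes in well-expressed genes, which did not cover genes near 1 TPM or ratios near 2-fold. Some list members are not reported here by name.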

Additional observations from a re-analysis of the deposited data

Results flagged for a closer look

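Each result here is a gene or count whose ratio of 2iLAF to basal went past 2-fold in one direction in WT and in the other in B3GALT5-KO. With 1 library per genotype and medium the difference between genotypes was not tested. Of the 745 genes higher in the WT pair 78 were lower in the knockout pair (10.5%), against 12.6% of all 14444 genes. Of the 1108 lower genes 112 were higher in the knockout pair (10.1%), against 11.4% of all genes. Both shares thus lay below the share over all genes. The genes below are those of the 78 and 112 that were among the 81 named for their WT ratio or TPM difference.

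FEZF1, a forebrain factor, had log2 ratios of 5.21 in WT and -1.44 in B3GALT5-KO. The knockout ratio rests on low levels, 1.72 TPM in B3GALT5-KO basal and a listed 0 in B3GALT5-KO 2iLAF. The ligand NODAL had -4.26 and 4.61, and its inhibitor LEFTY1 -5.45 and 2.41. The globin genes formed a group of their own, with HBB at -7.14 and 6.65, HBG2 at -4.63 and 3.62, HBA1 at -4.58 and 5.02 and HBA2 at -4.40 and 3.88. The erythroid markers other than globins summed to 14 TPM in WT basal, 1.78 in WT 2iLAF, 8.15 in B3GALT5-KO basal and 8.31 in B3GALT5-KO 2iLAF. HBA1 and HBA2, and HBG1 and HBG2, are near-identical and uncertain as single values. PHLDB2, which anchors microtubules at the cell cortex, had -4.20 and 1.40, ERVH48-1, a retroviral envelope gene, -4.16 and 1.52, KLHL4 -4.09 and 1.11, and the homeobox gene GBX2 -3.53 and 1.10.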

How the results depend on the processing

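Every alternative gave values with no test, on the same 2 libraries, and no result changed its direction past the 2-fold rule. Higher and lower genes numbered 351 and 455 with a pseudocount of 5, 208 and 184 with a 4-fold rule, and 679 were lower with FPKM. The median over all genes was -0.18 and -0.12 with pseudocounts of 0.1 and 5, 0.00 with no filter, -0.17 at 5 TPM or more, -0.017 after median-ratio and -0.019 after trimmed-mean rescaling, -0.071 with FPKM and 0.00 after GC-centring, so rescaling shifted the genes upwards together. List medians followed that shift. Oxidative phosphorylation stood at 0.058 and 0.055 after those rescalings, -0.0098 with FPKM and -0.0041 after GC-centring, and ribosomal proteins at 0.43 and 0.425 after rescaling, 0.36 with FPKM and 0.41 after GC-centring. Fatty acid synthesis was at -0.24 after either rescaling and -0.22 after GC-centring, ribosome biogenesis at -0.14 after either rescaling, and genes of G1 and S phase at 0.16 and 0.15. Mitotic genes were at -0.59 after either rescaling and -0.61 after GC-centring. The erythroid median was -5.74 with a pseudocount of 0.1. Of 350 listed or named genes counted among 1148, a pseudocount of 5 kept 247, rescaling 332 by either method, FPKM 305 of 336 and GC-centring 313 of 348. The cause of these shifts was not tested. No paired analysis was possible because each group held 1 library. Depth is unknown, so values near 1 TPM carry an error that could not be given.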

Other observations

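RNAs linked to the endogenous retrovirus HERV-H are abundant in human pluripotent cells. They were gathered, with the retroviral envelope gene ERVH48-1, in a list written after their values were seen. Of 10 written, 7 passed the filter, and 5 were lower and 0 higher in WT 2iLAF. ESRG stood at 1565 TPM in WT basal and 553 in WT 2iLAF, LINC00678 at 516 and 45.9, LINC00458 at 306 and 43.8, ERVH48-1 at 113 and 5.38, and LINC-ROR, a stem cell noncoding RNA, at 22.3 and 7.32. The 10 RNAs summed to 2545 TPM in WT basal, 681 in WT 2iLAF, 2429 in WT 5iLAF, 2808 in B3GALT5-KO basal and 2297 in B3GALT5-KO 2iLAF, so WT 2iLAF stood below the other 4 libraries.

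Gene classes taken from RefSeq types and symbol stems, also examined after the data were seen, differed in their counts. Of 51 small nucleolar RNA genes 7 stood higher and 22 lower, the median being -0.68, and of 32 histone genes with HIST symbols 1 stood higher and 9 lower, the median being -0.73. Transcripts of both classes are mostly without poly(A) tails, the feature by which RNA was selected for these libraries. None of 44 proteasome and 79 mitochondrial ribosome genes was counted in either direction, with medians of -0.39 and -0.25. By chromosome the median ratio ran from -0.38 on chromosome 13 to 0.04 on chromosome 19, beside the trend with GC content.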
